A study of Homo sapiens with 14 samples.

Results

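The genes described here are 58 genes of mitosis and the G2/M transition, taken by name from the 59471 gene names in the count tables. They comprise 5 cyclins and CDC25 phosphatases, 8 mitotic kinases, 10 kinesins, 10 genes of the centromere, kinetochore and spindle checkpoint, 3 chromosomal passenger subunits, 4 cytokinesis genes, 9 spindle proteins, 4 activators, enzymes and substrates of the anaphase-promoting complex (APC/C), 4 mitotic chromosome proteins and the transcription factor FOXM1. Polyadenylated RNA was sequenced from SCC23, an established head and neck squamous cell carcinoma (HNSCC) line. KMT2D-WT cells had received Cas9 with a guide to LacZ, while lines KO1 and KO2 (KMT2D-KO) had each received Cas9 with a different guide to KMT2D. All had been transfected with a Cas9 and GFP plasmid, GFP-positive cells were sorted and then cultured, and no cloning of single cells is described. Cells were kept in high glucose (+Glc) or deprived of glucose for 6 h (-Glc), with 3 KMT2D-WT and 4 KMT2D-KO libraries in each condition, spread over experiments 1 and 2. The comparisons asked how the loss of KMT2D, a histone H3K4 methyltransferase, changed transcripts in each glucose condition, and how glucose deprivation changed them in each genotype.

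Entry into mitosis is driven by CDK1 bound to cyclin B, which CDC25 phosphatases activate, and exit follows when the APC/C, switched on by CDC20, marks cyclin B and securin for destruction. Kinesins and other spindle proteins move and align chromosomes, the kinetochore couples them to microtubules, and the spindle checkpoint holds back the APC/C until all are attached. Many of these genes are transcribed late in the cell cycle under MuvB complexes, B-Myb and FOXM1, through the cell cycle homology region (CHR) and CCAAT boxes of their promoters. In bulk RNA, fewer cells in G2 or mitosis and less RNA per cell cannot be told apart.

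Library totals ran from 15669154 to 62968057 counts. In the 4 libraries of experiment 2 with glucose both mates of a pair were counted, and their totals were the 4 highest. The KMT2D transcript did not separate the genotypes in every library: levels in CPM, the counts scaled to the library total, were 231 to 279 in the 6 KMT2D-WT libraries, 182 and 184 in KO1 and 323 and 373 in KO2 with glucose, and 19.9, 190, 152 and 145 in the KO libraries without glucose, so genotypes are given throughout as labelled. Without glucose, the experiment 2 libraries labelled KO1 and KO2 both resembled KO2 over 18 genes that separate the lines with glucose (median log2 distance 0.14 and 0.20 to KO2, 2.97 and 2.93 to KO1). That pair differed little more than counting noise allows, with a chi-square per gene of 1.79, as did the KMT2D-WT pair of experiment 2 without glucose at 1.72, while the other 4 pairs of libraries gave 26.0 to 90.3. Counts of called genes without glucose are therefore also given with each of these pairs summed to 1 library. The study describes the experiments as independent, but nothing in the sources used here says that the KMT2D-WT libraries within experiment 2 came from separate cultures, so the spread between those may be technical. Of 10 squamous markers, 9 exceeded 1 CPM in every group, and KRT6A had group means of 0.0331 to 0.716 CPM, with a highest value of 1.13 CPM. Of 10 markers of other cell types, 7 never exceeded 2 CPM, among them PTPRC and CD3E at or near 0. The sum of the 10, carried mainly by COL1A1, was 6.39 to 9.32 CPM in KMT2D-WT and 16.9 to 21.1 CPM in KMT2D-KO libraries with glucose, and 3.88 to 6.89 CPM and 9.71 to 16.9 CPM without it.

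The 58 genes together took less of each KMT2D-KO library than of any KMT2D-WT library in the same condition. With glucose they held 1.26%, 1.25% and 1.49% of the counts in KMT2D-WT and 0.947%, 0.968%, 0.992% and 1.04% in KMT2D-KO libraries. Without glucose the shares were 0.996%, 1.24% and 1.25% in KMT2D-WT and 0.703%, 0.550%, 0.678% and 0.674% in KMT2D-KO libraries. MKI67, which codes for the Ki-67 protein that coats mitotic chromosomes, was the most abundant, and without it the KMT2D-KO shares remained lower, at 0.506% to 0.665% against 0.838% to 1.04% in KMT2D-WT cells without glucose. Per kilobase of exon in KMT2D-WT cells with glucose, the highest mean levels were those of MKI67 (188 ± 40.6 CPM per kb, SD, n = 3), CDC20 (177 ± 63.8), UBE2C (140 ± 74.6), TPX2 (138 ± 15.5) and CCNB1 (122 ± 23.4), and the ranges of neighbours in this order overlapped. PRC1 and NUSAP1 had few counts (130 to 327 and 1 to 54 per library), and 61.9% and 81.4% of their exonic bases were shared with another annotated gene. Reads there are not assigned by the counting used, so both levels are uncertain, and NUSAP1 was too low to test in several comparisons.

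**Figure D1:**
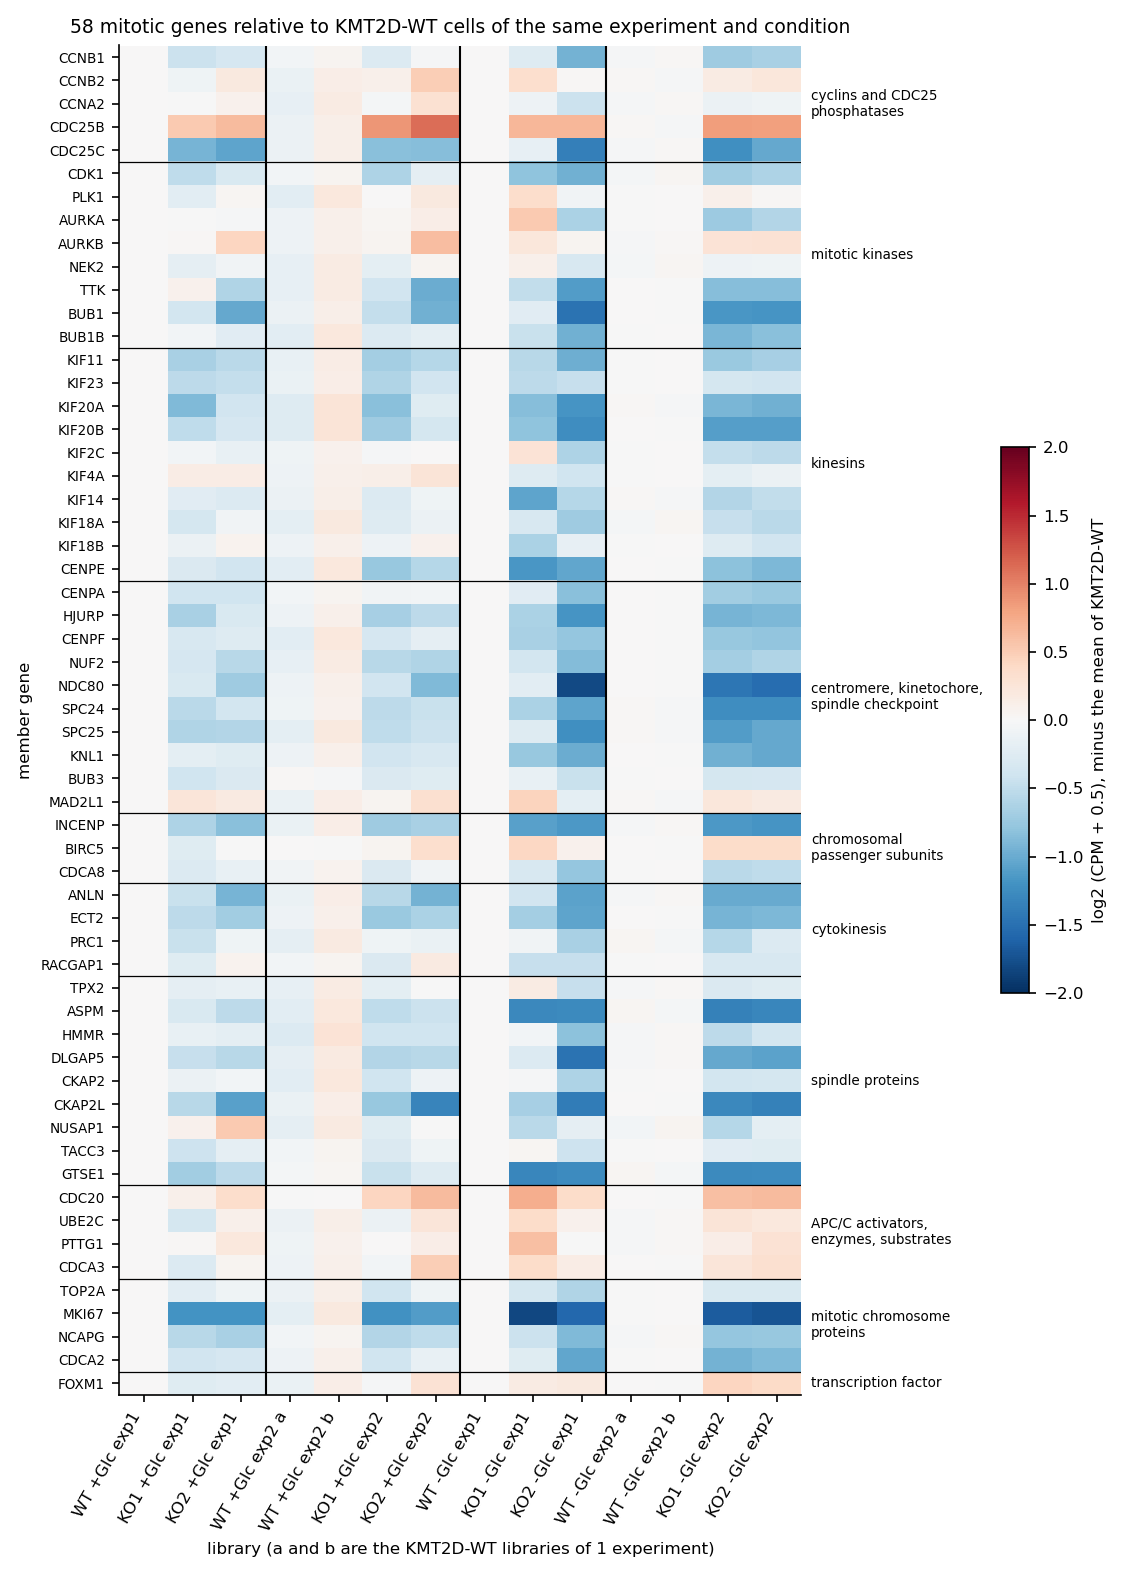
Colour gives log2 (CPM + 0.5) of each of the 58 genes (rows, by class) in each of the 14 libraries (columns), minus the mean of the KMT2D-WT libraries of the same experiment and glucose condition; the 2 experiment 1 KMT2D-WT columns are 0 by construction. Blue prevails in the KO columns without glucose, while CDC25B and CDC20 are red in all 8 KO columns.

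With glucose, KMT2D-KO cells had less transcript than KMT2D-WT cells of 24 of the 58 genes and more of 2. Among all 20423 genes tested, 11.7% were called lower and 13.0% higher (edgeR quasi-likelihood test with experiment as a term, Benjamini-Hochberg adjusted p under 0.05 over all genes). The median log2 fold change of the mitotic genes was -0.23, against 0.02 over all genes. The 24 included 7 of the 10 centromere and kinetochore genes, 4 of 10 kinesins, 4 of 9 spindle proteins, 3 of 4 mitotic chromosome proteins, 2 of 4 cytokinesis genes and 2 of 8 kinases, and 1 gene each of the cyclin and phosphatase and the passenger classes. Both higher genes act at the entry to and the exit from mitosis: CDC25B, a phosphatase that activates CDK1, and CDC20. Fewer genes were called in other settings, among the mitotic genes as over all genes. Without experiment as a term 2 were lower and 1 higher (2.33% and 2.42% of all genes), and experiment 1 alone called 1 lower and 0 higher (0.948% and 0.778%). Leaving out the KMT2D-WT library of experiment 1 left 10 lower (4.72% of all genes), and leaving out either KMT2D-WT library of experiment 2 left 1 higher (8.34% and 8.47%). Every KO library lay below every KMT2D-WT library of its own experiment for 28 of the 58 genes (21.3% of all genes) and above for 3, CDC25B, CDC20 and KIF4A (21.7%).

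MKI67 had the most negative log2 fold change of the 58 with glucose. Its level was 1985 CPM in the KMT2D-WT library of experiment 1 and 2278 and 2998 CPM in those of experiment 2, against 869 (KO1) and 863 (KO2) CPM in experiment 1 and 1133 and 1208 CPM in experiment 2. The groups did not overlap, and the fall was 2.26-fold (log2 -1.17 ± 0.10, SE, adjusted p = 0.00011). CDC25C, a phosphatase that acts on CDK1, fell from 31.6, 22.6 and 26.9 CPM in KMT2D-WT libraries to 16.3, 15.0, 13.6 and 13.5 CPM (log2 -0.92 ± 0.11, adjusted p = 0.000441). CKAP2L, a spindle protein, read 121, 157 and 191 CPM in KMT2D-WT cells, 82.1 and 103 CPM in KO1 and 57.0 and 68.7 CPM in KO2 (log2 -0.93 ± 0.17, adjusted p = 0.00467). Here too the groups stood apart, with KO2 the lower line in both experiments.

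Among the kinases, BUB1, which serves the spindle checkpoint, was at 199, 223 and 264 CPM in KMT2D-WT libraries, 154 and 174 CPM in KO1 and 98.3 and 124 CPM in KO2 (log2 -0.68 ± 0.17, adjusted p = 0.0163). CDK1, the kinase that drives mitotic entry, was at 131, 163 and 176 CPM in KMT2D-WT libraries and at 92.0 and 107 CPM in experiment 1 and 110 and 150 CPM in experiment 2 in KMT2D-KO libraries (log2 -0.38 ± 0.11, adjusted p = 0.0370). The KO values lay below the KMT2D-WT values within each experiment, but the ranges over both experiments overlapped. PLK1, AURKA and AURKB, which govern spindle assembly and chromosome alignment, did not pass the test (log2 0.03 ± 0.12, 0.05 ± 0.08 and 0.32 ± 0.15). PLK1 read 385, 188 and 251 CPM in KMT2D-WT and 333, 394, 218 and 250 CPM in KMT2D-KO libraries, and AURKA 150, 122 and 141 CPM against 149, 148, 135 and 145 CPM. AURKB read 252, 119 and 139 CPM in KMT2D-WT libraries, 257 and 134 CPM in KO1 and 338 and 198 CPM in KO2.

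KIF11, the kinesin that pushes spindle poles apart, fell from 151 to 95.9 (KO1) and 103 (KO2) CPM in experiment 1, and from 260 and 318 to 180 and 193 CPM in experiment 2 (log2 -0.61 ± 0.09, adjusted p = 0.00164). NDC80, which binds microtubules at the kinetochore, was at 98.3, 126 and 145 CPM in KMT2D-WT, 79.7 and 103 CPM in KO1 and 59.7 and 73.2 CPM in KO2 (log2 -0.56 ± 0.14, adjusted p = 0.0212). All 3 of its partners in the NDC80 complex, NUF2, SPC24 and SPC25, were also called lower (log2 -0.53, -0.47 and -0.52). INCENP, the scaffold of the chromosomal passenger complex, fell from 335 to 219 and 187 CPM in experiment 1 and from 179 and 217 to 120 and 126 CPM in experiment 2 (log2 -0.70 ± 0.09, adjusted p = 0.000820). Its partners BIRC5 and CDCA8 did not pass the test (log2 0.08 ± 0.11 and -0.18 ± 0.09). ANLN, a scaffold of the contractile ring, read 419, 577 and 690 CPM in KMT2D-WT, 309 and 428 CPM in KO1 and 221 and 328 CPM in KO2 (log2 -0.71 ± 0.14, adjusted p = 0.00634). For each of the 4 genes given by library here, the KO libraries were the low ones in both experiments.

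CDC25B was higher in every KO library, at 205, 220, 180 and 212 CPM against 142, 89.5 and 106 CPM in KMT2D-WT cells (1.79-fold, log2 0.84 ± 0.11, adjusted p = 0.00102). CDC20 rose within each experiment, from 504 to 541 and 640 CPM in experiment 1 and from 280 and 284 to 382 and 436 CPM in experiment 2 (log2 0.42 ± 0.10, adjusted p = 0.0156). Across experiments its groups overlapped. FOXM1, an activator of G2/M genes, read 377, 260 and 313 CPM in KMT2D-WT and 318, 326, 281 and 347 CPM in KMT2D-KO libraries, and its log2 fold change was -0.01 ± 0.11. CCNB1, which codes for cyclin B1, read 363, 257 and 274 CPM against 268, 286, 219 and 261 CPM (log2 -0.24 ± 0.09, adjusted p = 0.0883). TOP2A, which untangles chromosomes, read 416, 625 and 732 CPM against 361, 392, 515 and 637 CPM (log2 -0.19 ± 0.10). None of the last 3 passed the test.

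Without glucose, 37 of the 57 mitotic genes tested were lower and 5 higher in KMT2D-KO cells, where 24.9% of all 16782 genes were lower and 25.9% higher. The median log2 fold change was -0.65, against 0.00 over all genes. The lower genes comprised 9 of 10 kinesins, 9 of 10 centromere and kinetochore genes, all 4 mitotic chromosome proteins, 3 of 4 cytokinesis genes, 4 of 8 kinases, 4 of 8 spindle proteins, 2 of 3 passenger subunits and 2 of 5 cyclins and phosphatases. In contrast, none of the 4 APC/C genes was lower by this test or at an unadjusted p under 0.05, since all 4 had positive log2 fold changes of 0.22 to 0.58, and 2 of them, CDC20 and CDCA3, were called higher. The other higher genes were CDC25B, BIRC5 (survivin, of the passenger complex) and FOXM1. The share of all genes called moved with the setting as well. With the close pairs summed 12 mitotic genes were lower and 1 higher (7.52% and 8.99% of all genes), without experiment as a term 12 and 1 (11.6% and 10.2%), and in experiment 1 alone, with 1 KMT2D-WT library, no gene of any kind was called. Without the KO1 library of experiment 1, whose KMT2D level stood apart at 19.9 CPM, 46 were lower and 8 higher (37.7% and 36.7% of all genes), and without the KO2 library of that experiment 38 and 9 (27.8% and 27.2%). Leaving out any other single library left 26 or 27 lower and 3 higher, where 16.7% to 18.5% of all genes were lower and 17.7% to 20% higher. The median log2 difference between the genotypes was -0.53 in experiment 1 and -0.59 in experiment 2. Separation was also seen library by library, with every KO value below every KMT2D-WT value of its experiment for 41 of 57 genes (32.3% of all genes) and above for 8 (31.6%). Mitochondrial transcripts moved with genotype here, at 2.64% to 2.77% of counts in KMT2D-WT and 3.82% to 4.83% in KMT2D-KO libraries, and so did the share of the 10 most abundant genes, at 4.53% to 4.98% and 7.04% to 7.42%. Their part in the result was not tested. All 24 genes lower with glucose were among the 37 lower without it, which is 100% of the first list and 64.9% of the second. The same overlap over all genes is not given here, so these 2 shares have no background beside them. CDC25B and CDC20 were higher in both conditions.

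MKI67 again had the most negative fold change, at 1531, 1885 and 1893 CPM in KMT2D-WT libraries against 432 (KO1) and 513 (KO2) CPM in experiment 1 and 598 and 568 CPM in experiment 2. No KO library came near the KMT2D-WT range, and the fall was 3.29-fold (log2 -1.72 ± 0.06, adjusted p = 3.11e-05). The SE and adjusted p of single genes from libraries without glucose, here and below, take the close pairs as separate libraries. They may therefore overstate certainty. ASPM, which organises spindle poles, fell from 86.2 to 34.9 and 35.5 CPM in experiment 1 and from 259 and 247 to 99.0 and 102 CPM in experiment 2 (2.53-fold, log2 -1.34 ± 0.07, adjusted p = 3.96e-05). GTSE1, a microtubule-binding protein of G2 and mitosis, read 144, 112 and 108 CPM in KMT2D-WT and 58.4, 60.3, 45.0 and 45.7 CPM in KMT2D-KO cells (log2 -1.30 ± 0.06, adjusted p = 3.96e-05). For GTSE1, as for MKI67, the groups were separate across both experiments. 

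NDC80 read 77.9, 118 and 118 CPM in KMT2D-WT cells and 67.1 (KO1), 21.9 (KO2), 42.9 and 40.6 CPM in KMT2D-KO cells, a log2 fold change of -1.25 with the large SE of 0.38 (adjusted p = 0.0311). The KO1 library of experiment 1 was the KO value nearest to KMT2D-WT. The same library stood nearest for BUB1, at 147 CPM, where KMT2D-WT libraries had 173, 216 and 214 CPM and the other KO libraries 61.6, 95.4 and 94.6 CPM (log2 -1.02 ± 0.30, adjusted p = 0.0271). CDC25C showed it more strongly, at 24.9 CPM in that library against 10.4, 9.59 and 11.1 CPM in the other KO libraries and 27.8, 22.8 and 23.4 CPM in KMT2D-WT (log2 -0.97 ± 0.31, adjusted p = 0.0345).

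KIF20B, a kinesin of cytokinesis, fell from 44.9 to 25.5 and 18.7 CPM in experiment 1 and from 176 and 173 to 80.9 and 81.1 CPM in experiment 2 (log2 -1.09 ± 0.13, adjusted p = 0.000568). INCENP fell from 259, 174 and 180 CPM to 122, 117, 79.3 and 78.2 CPM (log2 -1.17 ± 0.07, adjusted p = 6.49e-05). ECT2, which activates RhoA at the cleavage furrow, read 152, 320 and 318 CPM against 94.2, 72.6, 166 and 171 CPM (log2 -0.91 ± 0.11, adjusted p = 0.000758). CDK1 fell from 133, 220 and 230 CPM to 76.1, 68.0, 138 and 147 CPM (log2 -0.77 ± 0.08, adjusted p = 0.000416), and TOP2A from 345, 696 and 710 CPM to 269, 228, 572 and 571 CPM (log2 -0.39 ± 0.08, adjusted p = 0.00847). CCNB1, not called with glucose, was lower without it, at 246, 153, 168 and 176 CPM in KMT2D-KO against 295, 271 and 279 CPM in KMT2D-WT libraries (log2 -0.65 ± 0.17, adjusted p = 0.0182). Of these 6 genes, INCENP and CCNB1 had groups that did not overlap over both experiments, and the other 4 did not overlap within an experiment.

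Against this fall, CDC25B stayed higher in KMT2D-KO cells, at 193, 193, 170 and 170 CPM against 122, 97.3 and 94.0 CPM (1.67-fold, log2 0.74 ± 0.06, adjusted p = 0.000164). CDC20 rose from 393 to 653 and 507 CPM in experiment 1 and from 243 and 239 to 365 and 374 CPM in experiment 2 (log2 0.58 ± 0.11, adjusted p = 0.00439). FOXM1 was at 373, 381, 347 and 337 CPM in KMT2D-KO and 333, 259 and 255 CPM in KMT2D-WT libraries (log2 0.30 ± 0.06, adjusted p = 0.00599), with no overlap between the groups. PLK1 read 320, 239, 194 and 185 CPM against 251, 180 and 183 CPM (log2 0.08 ± 0.12), and AURKB 280, 249, 168 and 170 CPM against 240, 138 and 141 CPM (log2 0.20 ± 0.08, adjusted p = 0.0619). AURKA read 118 CPM in the KO1 library of experiment 1 and 52.7, 51.1 and 56.4 CPM in the other KO libraries, on either side of the 82.3, 84.3 and 85.7 CPM of KMT2D-WT cells (log2 -0.40 ± 0.31). None of these 3 kinases passed the test.

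**Figure D2:**
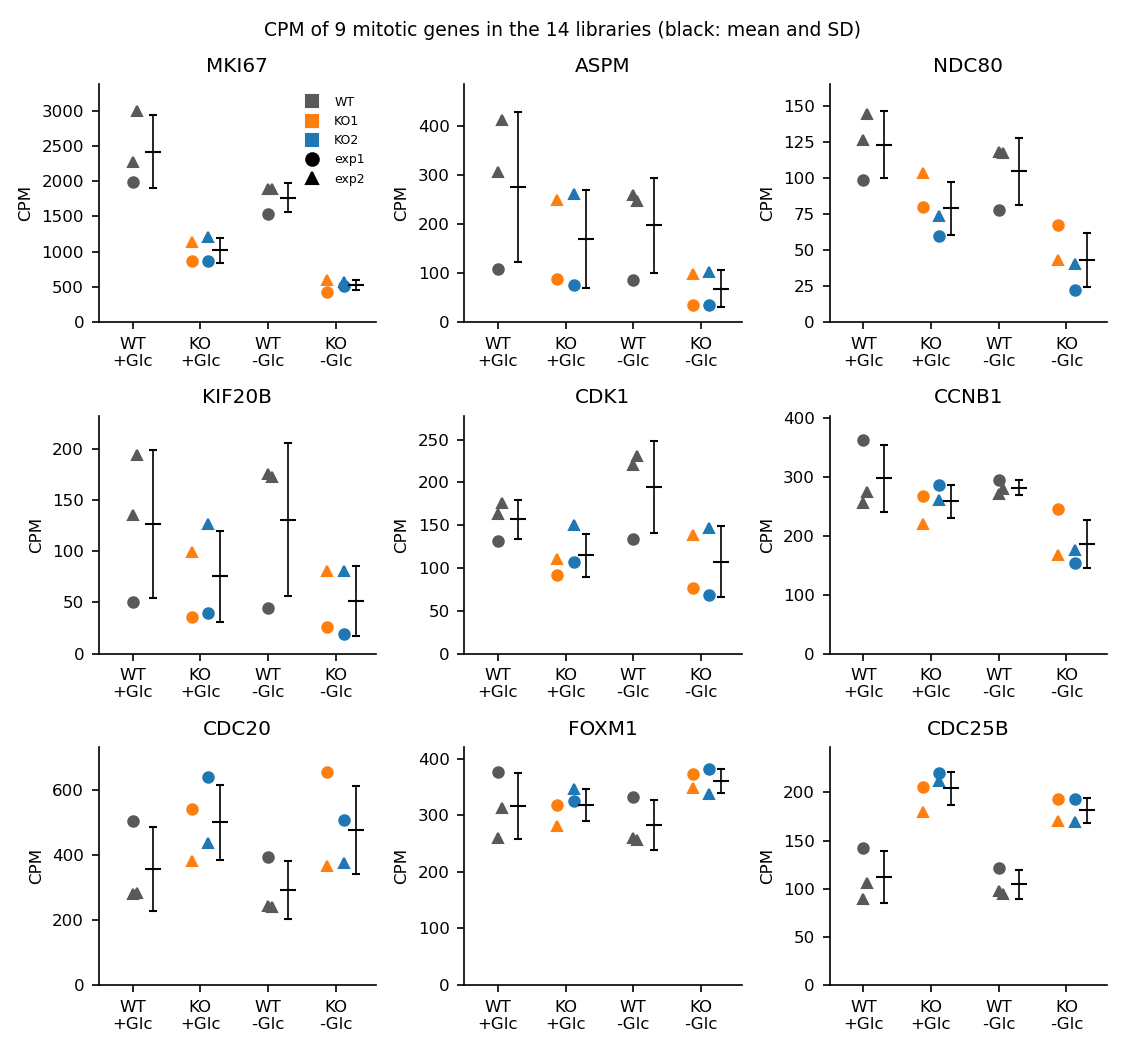
CPM of 9 mitotic genes in the 14 libraries by genotype and glucose condition; circles are experiment 1, triangles experiment 2, grey is KMT2D-WT, orange KO1 and blue KO2 as labelled, and black bars give the mean and SD of each group (n = 3 or 4). MKI67 falls to 432 to 598 CPM in KO cells without glucose, while CDC25B is higher in KO cells than in KMT2D-WT cells in both conditions.

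**Figure D3:**
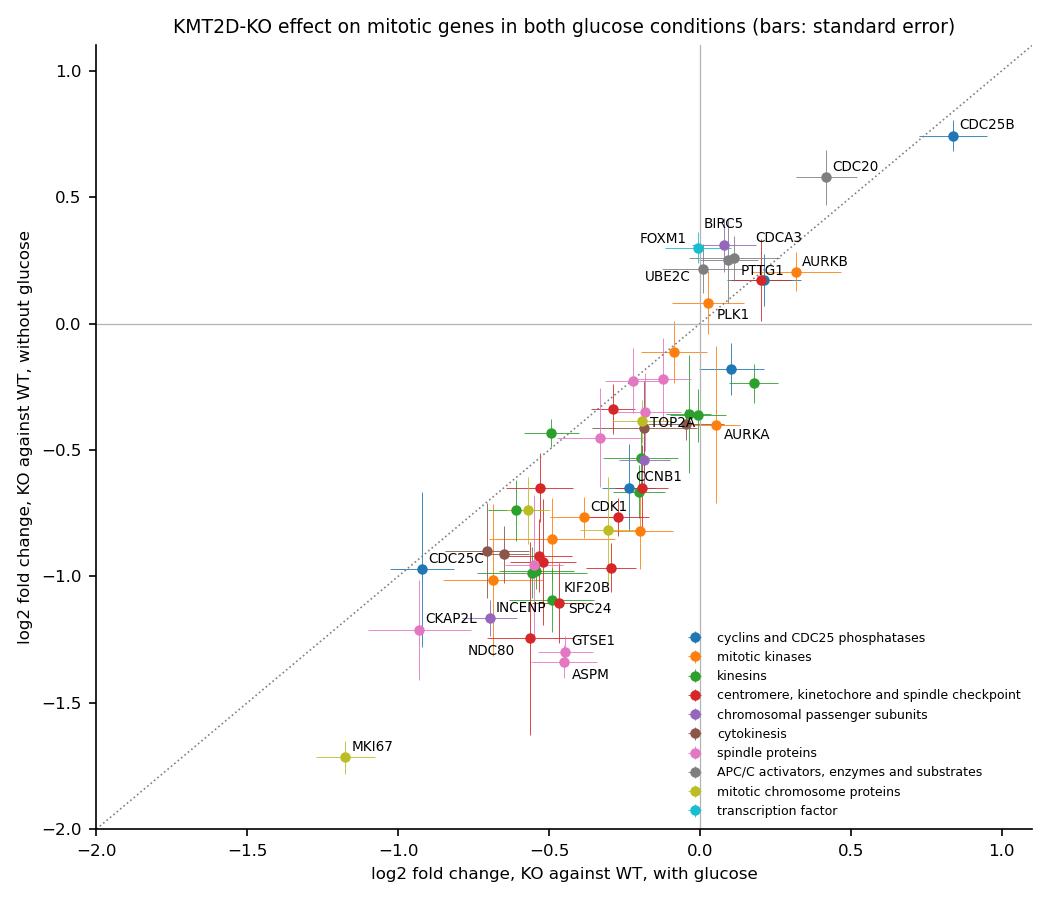
Log2 fold change of KMT2D-KO against KMT2D-WT cells with glucose (x axis) and without glucose (y axis) for the 57 mitotic genes tested in both, coloured by class, with standard errors as bars and a dotted line of equal change. Most genes lie below the dotted line, and CDC25B and CDC20 lie at the upper right.

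The KMT2D-KO effect itself differed between the glucose conditions for 8 of the 58 genes, all more negative without glucose, where 6.54% of all 18678 genes tested had a more negative and 4.73% a more positive effect. The median difference over the 58 genes was -0.30 on the log2 scale, against 0.00 over all genes. This fit had no term for line, and the experiment 2 library labelled KO1 without glucose resembled KO2. The balance of lines may therefore differ between the glucose conditions, and its part in the difference was not tested. The 8 were ASPM (-0.86 ± 0.14, adjusted p = 0.00356), GTSE1 (-0.83 ± 0.12, adjusted p = 0.00167), KNL1 (-0.65 ± 0.12, adjusted p = 0.00650), SPC24 (-0.62 ± 0.17, adjusted p = 0.0342), MKI67 (-0.51 ± 0.13, adjusted p = 0.0279), CENPF (-0.47 ± 0.13, adjusted p = 0.0422), INCENP (-0.44 ± 0.12, adjusted p = 0.0338) and KIF4A (-0.39 ± 0.11, adjusted p = 0.0476). KNL1, SPC24 and CENPF belong to the kinetochore, and KIF4A is a chromosome-bound kinesin. KNL1 read 69.9, 184 and 213 CPM in KMT2D-WT and 61.0, 59.2, 152 and 159 CPM in KMT2D-KO cells with glucose, and 57.9, 173 and 170 CPM against 34.0, 28.9, 88.1 and 84.5 CPM without it. KIF4A changed sides, at 141, 142, 134 and 149 CPM in KMT2D-KO against 128, 116 and 133 CPM in KMT2D-WT cells with glucose, and 95.0, 86.1, 91.9 and 97.1 CPM against 113, 104 and 106 CPM without it. No mitotic gene had a significantly more positive effect without glucose in edgeR or DESeq2, and 1 had an unadjusted p under 0.05. At that limit 16 were more negative, and together 29.3% of the mitotic genes passed, near the 27.3% of all genes. Leaving out single libraries gave 3 to 9 genes, where 2.39% to 7.53% of all genes were more negative. Without the KO1 library of experiment 1 without glucose, 22 were called (11.2% of all genes). The count was 2 with the close pairs summed (0.912% of all genes). It was 0 without experiment as a term (0.268%) and 5 with size factors in place of TMM (6.03%). For CDK1, CCNB1, PLK1, AURKA, AURKB, CDC20, TOP2A and FOXM1 the difference did not pass the test (-0.36, -0.39, 0.08, -0.43, -0.09, 0.18, -0.17 and 0.33 in that order).

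In KMT2D-WT cells, 6 h without glucose lowered 8 of the 58 mitotic genes and raised none, where 7.58% of all 17227 genes fell and 7.15% rose, and the median log2 fold change was -0.14 (0.01 over all genes). At an unadjusted p under 0.05, 17 were lower and 3 higher, together 34.5% of the mitotic genes against 40.5% of all genes, and DESeq2 called 12 lower and 3 higher, where 12.8% and 23.3% of all genes were called. AURKA changed most among the 8, from 150 to 82.3 CPM in experiment 1 and from 122 and 141 to 84.3 and 85.7 CPM in experiment 2 (log2 -0.70 ± 0.08, adjusted p = 0.0171). CDCA2, which recruits protein phosphatase 1 to chromatin, read 56.8, 68.1 and 78.8 CPM with and 39.4, 52.9 and 54.1 CPM without glucose (log2 -0.47 ± 0.07, adjusted p = 0.0225). CDCA3, a trigger of mitotic entry, fell from 134, 59.8 and 69.6 CPM to 88.1, 50.6 and 49.7 CPM (log2 -0.44 ± 0.08, adjusted p = 0.0318). HJURP, the chaperone of CENPA, read 210, 178 and 204 CPM and then 160, 145 and 144 CPM (log2 -0.39 ± 0.06, adjusted p = 0.0269). In all 4 genes each value without glucose was below the values with glucose of its experiment. KIF18B, a microtubule-depolymerising kinesin, read 296, 177 and 205 CPM and then 242, 148 and 150 CPM, the spindle protein TACC3 522, 302 and 325 CPM and then 384, 258 and 264 CPM, and BIRC5 211, 150 and 148 CPM and then 153, 127 and 125 CPM. These 3 genes and CDC20 also fell (log2 -0.33, -0.32, -0.31 and -0.26). With the close pair summed, without experiment as a term, or without any single experiment 2 library, 0 mitotic genes were lower, and over all genes 0 to 2 were. The experiment 2 libraries with glucose were counted on both mates and those without were not, and with those counts halved 8 mitotic genes were again lower and the median was again -0.14. Within experiment 1, where the counting was alike and each condition had 1 KMT2D-WT library, 54 of 58 genes had a lower value without glucose, with a median log2 difference of -0.27. Among all genes with a mean of 1 CPM or more, 47.4% had a lower value, and the median was 0.01.

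In KMT2D-KO cells, glucose deprivation lowered 25 of the 57 mitotic genes tested and raised none, where 16.5% of all 16057 genes fell and 14.2% rose. No mitotic gene rose at an unadjusted p under 0.05 either, and DESeq2 called 1 higher, where it called 26.9% of all genes higher. The median log2 fold change was -0.43 (0.01 over all genes, 0.08 with size factors in place of TMM). With size factors 21 mitotic genes were lower (14.3% of all genes). The 25 included 6 of 10 kinesins, 6 of 10 centromere and kinetochore genes, 5 of 8 spindle proteins, 2 of 3 passenger subunits, 2 of 4 chromosome proteins, 2 of 8 kinases, 1 cyclin and 1 cytokinesis gene, and no APC/C gene. ASPM changed most, from 88.4 and 76.0 to 34.9 and 35.5 CPM in experiment 1 and from 249 and 262 to 99.0 and 102 CPM in experiment 2 (log2 -1.31 ± 0.08, adjusted p = 0.000749). AURKA fell from 149, 148, 135 and 145 CPM to 118, 52.7, 51.1 and 56.4 CPM (log2 -1.13 ± 0.24, adjusted p = 0.0160). MKI67 fell from 869, 863, 1133 and 1208 CPM to 432, 513, 598 and 568 CPM (log2 -0.96 ± 0.09, adjusted p = 0.00200). For AURKA and MKI67 the highest library without glucose lay below the lowest with glucose. KIF20A fell from 104, 147, 66.9 and 101 CPM to 71.0, 56.9, 53.5 and 51.9 CPM (log2 -0.82 ± 0.17, adjusted p = 0.0158), and RACGAP1, a partner of ECT2, from 107, 133, 98.9 and 138 CPM to 72.3, 72.2, 89.1 and 89.3 CPM (log2 -0.58 ± 0.12, adjusted p = 0.0168). NDC80 was lower by a log2 value of -0.93 ± 0.24 (adjusted p = 0.0277), CDCA2 and INCENP by -0.97 ± 0.19 and -0.72 ± 0.08, as were KNL1 (-0.91 ± 0.08) and CCNB1 (-0.51 ± 0.15, adjusted p = 0.0476). CDK1, PLK1, AURKB, CDC20, TOP2A and FOXM1 did not pass the test (log2 -0.18, -0.36, -0.07, -0.11, -0.32 and 0.16).

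The libraries of experiment 1 gave a separate view of each line. In KO2, 57 of the 58 genes were lower without glucose (median log2 difference -0.67), and in KO1 41 of 58 (median -0.23). Each line had 1 library per condition, and no test was run. Among all genes with a mean of 1 CPM or more, 46.5% were lower in KO2 and 49.9% in KO1. In experiment 2 the KMT2D-KO median was -0.34, with 47 of 58 genes lower (47.2% of all genes at the same limit). The fit on experiment 1 alone gave a median of -0.50 (-0.03 over all genes), with 53 of 57 genes negative. Both mates were counted in experiment 2 with glucose only, and with those counts halved the median was again -0.43. Without experiment as a term 5 genes were called lower (5.54% of all genes), and with the close pair summed 17 (7.14%). With the line left out of the fit 23 were lower (16%), and without the KO2 library of experiment 2 with glucose 12 (6.39%). Leaving out the KO2 library of experiment 1 with glucose left 15 (9.52%). Leaving out the experiment 2 library labelled KO2 without glucose left 14 (6.4%).

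**Figure D4:**
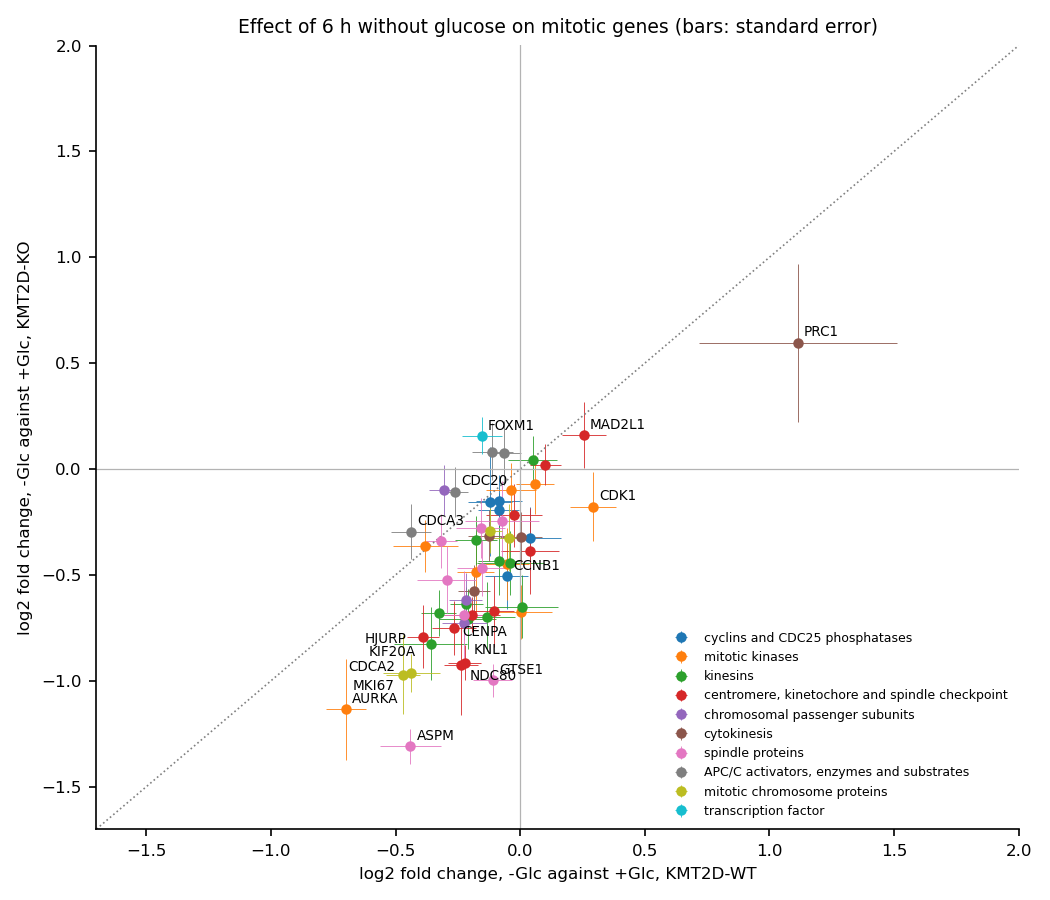
Log2 fold change after 6 h without glucose in KMT2D-WT (x axis) and KMT2D-KO cells (y axis) for the 57 mitotic genes tested in both, coloured by class, with standard errors as bars and a dotted line of equal change. AURKA is low on both axes (-0.70 and -1.13), and PRC1, of few counts, stands apart at the right.

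With glucose, where the line labels were not in doubt, 7 of the 58 genes were lower and 5 higher in KO1 than in KO2. These were 12.1% and 8.6%, against 7.4% and 7.32% of all 21850 genes. At an unadjusted p under 0.05, 41.4% of the mitotic genes passed, against 25.5% of all genes. The median log2 difference was -0.14, against -0.02 over all genes. The 5 higher in KO1 were TTK, BUB1, CKAP2L, NDC80 and ANLN (log2 0.64 ± 0.13, 0.55 ± 0.09, 0.54 ± 0.10, 0.45 ± 0.09 and 0.42 ± 0.09). TTK, a checkpoint kinase, read 37.0 and 75.4 CPM in KO1 and 22.8 and 49.3 CPM in KO2, against 34.8, 88.0 and 109 CPM in KMT2D-WT cells (KO1 against KO2 adjusted p = 0.00223). Without glucose in experiment 1, each of the 5 was again higher in KO1, with NDC80 at 67.1 against 21.9 CPM, BUB1 at 147 against 61.6 CPM, ANLN at 277 against 172 CPM, CKAP2L at 59.7 against 35.6 CPM and TTK at 22.8 against 14.5 CPM. In the close pair of experiment 2 without glucose they were nearly equal, with NDC80 at 42.9 and 40.6 CPM and TTK at 53.0 and 52.9 CPM. The 7 lower in KO1 were KIF20A, AURKB, CDCA3, UBE2C, RACGAP1, CDK1 and CCNB2 (log2 -0.56, -0.49, -0.47, -0.42, -0.41, -0.35 and -0.34). KIF20A, a kinesin of cytokinesis, read 104 and 66.9 CPM in KO1 and 147 and 101 CPM in KO2 (± 0.12, adjusted p = 0.00416). AURKB read 257 and 134 CPM in KO1 and 338 and 198 CPM in KO2 (± 0.09, adjusted p = 0.000945). CCNB2, which codes for cyclin B2, read 142 and 122 CPM against 172 and 159 CPM, and CDCA3 111 and 61.8 CPM against 140 and 91.4 CPM. MKI67 did not separate the lines (-0.05 ± 0.10). Without experiment as a term no mitotic gene did so, where 3 of all genes were lower and 8 higher in KO1. Leaving out either KO library of experiment 2, or the KO1 library of experiment 1, left 1 library of that line. Fewer genes were then called, among the mitotic genes as over all genes. The median log2 difference of the mitotic genes was then -0.14 to -0.09, against -0.14 in the main fit. Without the second KMT2D-WT library of experiment 2, 13 mitotic genes were lower and 5 higher in KO1 (10.2% and 9.65% of all genes).

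RefSeq promoter windows on GRCh38.p14, from 250 bases before to 50 bases after each transcript start, were matched for 48 of the 58 genes. They were searched on both strands for the CHR letters TTTGAA and TTTAAA and for the CCAAT box, CCAAT. A CHR of either form was found for 41 of the 48 genes (85.4%), against 27.9% of all 27305 genes of the table, a CCAAT box for 39 (81.3% against 39.7%), and both for 33 (68.8% against 11.2%). Among genes with a single window, the share with both was 69.0% of 42 mitotic genes and 9.84% of all. Genes that were lower in KMT2D-KO cells without glucose held a CHR in 30 of 32 cases, all 3 matched higher genes did (CDC20, CDCA3 and CDC25B), and so did 7 of the 12 that were not called. CHR letters were thus found both in genes that fell and in genes that rose. To show this, the 100 bases before the start are given for 3 genes that fell without glucose (MKI67, ASPM and GTSE1), for CDC20, which rose, and for PLK1, which was not called, on the strand of the gene, with CHR and CCAAT letters of either strand in capitals.
MKI67, chr10:128126424-128126523, minus strand: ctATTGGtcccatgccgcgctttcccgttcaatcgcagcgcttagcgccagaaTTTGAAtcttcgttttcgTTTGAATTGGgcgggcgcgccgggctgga
ASPM, chr1:197146670-197146769, minus strand: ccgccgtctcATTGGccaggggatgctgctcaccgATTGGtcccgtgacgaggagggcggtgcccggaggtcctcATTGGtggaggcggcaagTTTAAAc
GTSE1, chr22:46296770-46296869, plus strand: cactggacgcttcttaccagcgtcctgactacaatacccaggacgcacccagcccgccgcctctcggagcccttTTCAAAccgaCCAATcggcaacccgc
CDC20, chr1:43358881-43358980, plus strand: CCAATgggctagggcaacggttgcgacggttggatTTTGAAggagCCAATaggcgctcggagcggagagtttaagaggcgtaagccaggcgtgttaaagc
PLK1, chr16:23678789-23678888, plus strand: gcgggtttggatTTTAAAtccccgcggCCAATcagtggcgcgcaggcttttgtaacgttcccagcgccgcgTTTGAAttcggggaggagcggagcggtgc

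In MKI67 CHR letters start 47 and 29 bases before the start, and the second overlaps a CCAAT box read on the other strand. ASPM has CCAAT boxes beginning 90, 65 and 25 bases before its start and a CHR at 7 bases. CDC20 has a CHR 65 bases and CCAAT boxes 100 and 55 bases before its start. PLK1 has CHR letters at 88 and 29 bases and a CCAAT box at 73 bases. In GTSE1 a CHR begins 26 bases and a CCAAT box 16 bases before the start. A match describes the letters of a window and does not show binding.

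Transcript length moved with the results. Across the mitotic genes, log2 fold change and exonic length had a Spearman correlation of -0.33 with glucose (58 genes) and -0.27 without (57 genes), against -0.07 and -0.16 over all genes. These correlations are across genes of the same libraries and are descriptions only. The difference between experiments followed length more closely, with correlations of 0.44 and 0.45 with glucose and 0.45 and 0.51 without it over the 58 genes, against 0.42 and 0.44 with glucose and 0.20 and 0.24 without it over all genes (KMT2D-WT and KMT2D-KO libraries in that order). ASPM, with 10888 exonic bases, read 109 CPM in experiment 1 and 306 and 412 CPM in experiment 2 in KMT2D-WT cells with glucose, while UBE2C, with 1286, read 290 CPM and then 115 and 136 CPM. With a length-dependent offset in the fit, 22 genes were lower and 2 higher with glucose (11.2% and 13.2% of all genes). Without glucose 34 were lower and 7 higher (22.3% and 29.5%).

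**Figure D5:**
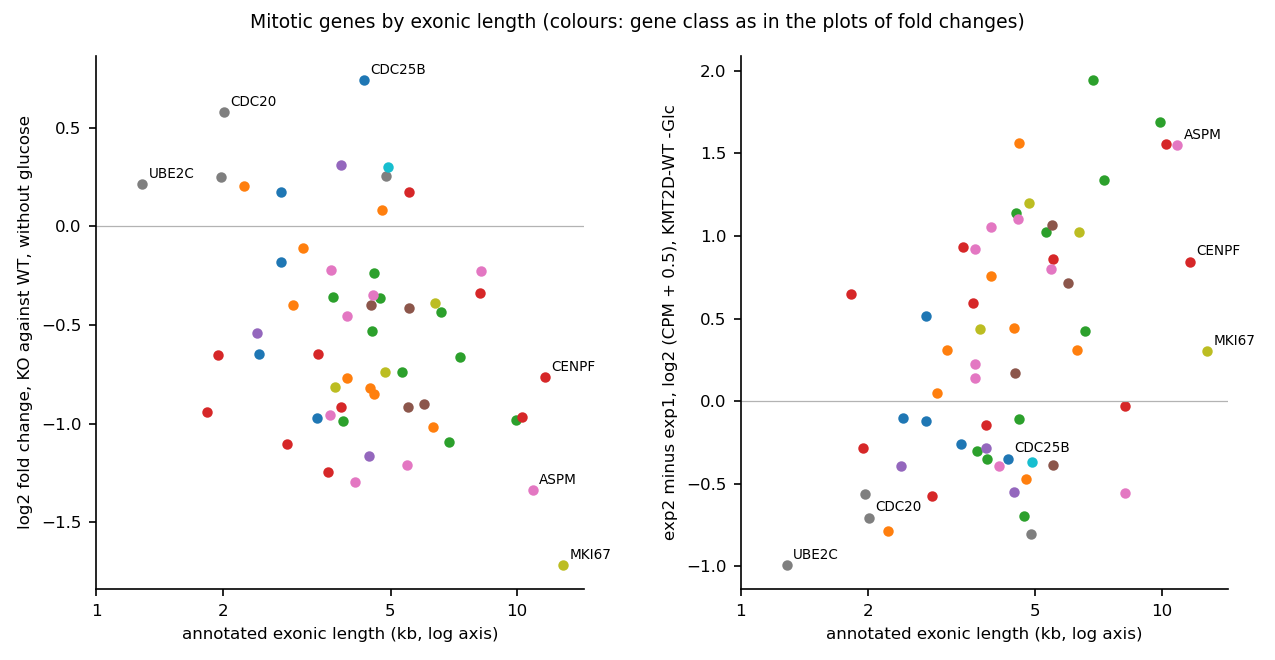
Left, log2 fold change of KMT2D-KO against KMT2D-WT cells without glucose, and right, experiment 2 minus experiment 1 in KMT2D-WT cells without glucose (log2 of CPM + 0.5), against exonic length in kb on a log axis; each point is a mitotic gene coloured by class. Short UBE2C and CDC20 lie above 0 at the left and below 0 at the right, where ASPM lies above 0.

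Of 90 further mitotic genes, 26 were lower and 4 higher in KMT2D-KO cells with glucose (28.9% and 4.4%, against 11.7% and 13.0% of all genes), and 32 were lower and 16 higher without it (35.6% and 17.8%, against 24.9% and 25.9%), with median log2 fold changes of -0.15 and -0.22. Without glucose, the fall was led by ESPL1, which codes for separase (-1.57 ± 0.07), DEPDC1B (-1.22 ± 0.08), the citron kinase gene CIT (-1.15 ± 0.22), SGO2, a guardian of centromeric cohesion (-1.11 ± 0.26), and DSN1, of the outer kinetochore (-1.10 ± 0.11). ESPL1 read 106, 86.9 and 82.2 CPM in KMT2D-WT and 37.6, 36.2, 27.9 and 29.2 CPM in KMT2D-KO cells. The APC/C subunit ANAPC1 was lower (-0.87 ± 0.12) and ANAPC15 higher (1.00 ± 0.08). PKMYT1 and WEE1, the kinases that hold CDK1 inactive, were both higher (0.82 ± 0.06 and 0.79 ± 0.25).

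Of 42 genes of G1/S and DNA replication, 12 were lower and 3 higher with glucose (28.6% and 7.1%, against 11.7% and 13.0% of all genes). Without it 10 were lower and 6 higher (23.8% and 14.3%), the first near and the second below the share over all genes, and the median log2 fold change was -0.04. CDC45, of the replicative helicase, was lower in both conditions (-1.20 ± 0.11 and -0.80 ± 0.09) and MCM4, of the same helicase, higher in both (0.46 ± 0.11 and 0.93 ± 0.05), while CDT1, which loads it, was higher without glucose (0.98 ± 0.06). Of 19 cell cycle transcription regulators, 3 were lower and 2 higher with glucose, and 3 lower and 5 higher without it. Lower genes were 15.8% of the list in both conditions, against 11.7% of all genes with and 24.9% without glucose, and higher genes without glucose were 26.3%, near the 25.9% of all genes. MYBL2, which codes for B-Myb, was higher without glucose (0.68 ± 0.06), at 440, 483, 421 and 414 CPM in KMT2D-KO against 314, 238 and 240 CPM in KMT2D-WT cells. The repressor E2F8 and the activator E2F2 were lower in both conditions, by log2 values of -0.84 and -0.48 with glucose and -1.10 and -1.52 without it.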

How the data were processed

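The authors deposited raw counts per gene, made with featureCounts v2.0.3 on HISAT2 v2.2.0 alignments with the Ensembl 102 annotation of GRCh38, unstranded, by gene name, on primary alignments; both mates were counted in 4 libraries. All 14 libraries were grouped by their labels. Counts were tested with the edgeR 4.0.16 quasi-likelihood test (R 4.3.3) after filterByExpr at 10 counts and TMM scaling, with experiment as a term (also line for glucose deprivation in KMT2D-KO cells). Benjamini-Hochberg adjusted p-values cover all genes tested, with a limit of 0.05. Displayed CPM are scaled by TMM over the 14 libraries, so their ratios differ slightly from fitted fold changes. Members and lists were chosen with earlier results of these data known. Values by library were given for CDK1, CCNB1, PLK1, AURKA, AURKB, CDC20, TOP2A, MKI67, FOXM1 and the largest called change of each class. Genes given beyond that rule, such as GTSE1, were chosen after their values were seen. DESeq2 1.42.0 and the alternatives described at the end were also run. Experiments paired the genotypes: differences between them correlated at 0.93 with and 0.86 without glucose across genes. In data simulated for each comparison (15541 to 21020 genes, 200 changed) 26% to 65% of 2-fold and 62% to 88% of 4-fold changes were found, with 4.35% to 10.6% false calls.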

Additional observations from a re-analysis of the deposited data

Results flagged for a closer look

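Only the mitotic genes followed by name were checked for single libraries far from the rest. Within the 4 KMT2D-KO libraries without glucose, 4 of these genes had 1 library far from the other 3. With independent libraries, chance passes this test in about 1 of 20 groups. The close pair is among these 4 libraries, so that rate does not apply here. Many genes were checked, and whether 4 is more than chance would give was not tested. The KO1 library of experiment 1 was the high value for AURKA (118 CPM), BIRC5 (205 CPM) and CDC25C (24.9 CPM), and the KO2 library of experiment 1 was the low value for ANLN (172 CPM). The KMT2D-KO effect differed between glucose conditions for 8 genes by the interaction term of edgeR, with log2 differences of -0.39 for KIF4A, -0.47 for CENPF, -0.62 for SPC24, -0.65 for KNL1, -0.44 for INCENP, -0.86 for ASPM, -0.83 for GTSE1 and -0.51 for MKI67 (adjusted p = 0.0476, 0.0422, 0.0342, 0.00650, 0.0338, 0.00356, 0.00167 and 0.0279 in the same order).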

How the results depend on the processing

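Counts below are mitotic genes called lower, then higher. The replicate block is the experiment: without it, KMT2D-KO against KMT2D-WT gave 2 and 1 with glucose and 12 and 1 without it (DESeq2 without it: 6 and 1, and 17 and 1), the difference between glucose conditions 0 lower, glucose deprivation 0 lower in KMT2D-WT and 5 in KMT2D-KO cells, and KO1 against KO2 0 and 0. Experiment 1 alone gave 1 and 0 with glucose and 0 and 0 without it, and experiment 2 alone 11 and 2 with glucose (5.66% and 6.09% of all genes) and 46 and 10 without it (37.5% and 37%). KO2 alone gave 23 and 6 with glucose (17% and 18%) and 46 and 8 without it (34.1% and 33.7%). With the close pairs summed, 12 and 1 were called without glucose, 2 for the difference and 0 for KMT2D-WT cells after glucose deprivation. Size factors left 5 for the difference. DESeq2 with experiment called 3 higher in KMT2D-WT and 1 higher in KMT2D-KO cells after glucose deprivation, and a fit with no filter on low counts called 3 higher in KMT2D-WT cells. Leaving out 1 library in turn gave 10 to 25 and 1 to 3 with glucose, 26 to 46 and 3 to 9 without it, 3 to 22 and 0 to 1 for the difference, 0 to 11 and 0 to 4 for glucose deprivation in KMT2D-WT cells, 12 to 35 and 0 to 1 in KMT2D-KO cells, and 0 to 13 and 1 to 5 between the lines. Over all genes, 1 library left out gave shares of 4.72% to 12.6% and 5.31% to 13.5% with glucose. Without it the shares were 16.7% to 37.7% and 17.7% to 36.7%, and for the difference 2.39% to 11.2% and 1.57% to 11.4%. For glucose deprivation they were 0% to 21.8% and 0% to 25.8% in KMT2D-WT cells. In KMT2D-KO cells they were 6.39% to 17.4% and 3.7% to 16.3%. Fits with a lone library in a group assume that it varies like the others. The causes were not tested. Experiment 1 alone has 1 KMT2D-WT library per condition and gave no test of glucose deprivation there.

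No called mitotic gene turned direction in any alternative that was run. Among those not called, 13 of 32 turned in at least 1 alternative for KMT2D-KO against KMT2D-WT with glucose and 2 of 15 without it. For the difference 11 of 50 turned, and between the lines 15 of 46. For glucose deprivation 19 of 50 turned in KMT2D-WT and 10 of 32 in KMT2D-KO cells. Of the genes followed by name, these turned. With glucose, FOXM1 (-0.01) became 0.0015 with DESeq2 and with size factors, 0.012 without the replicate block (DESeq2: 0.026), 0.082 in KO2 alone, 0.12 in experiment 2 alone, 0.0014 with both-mate counts halved and -0.118 to 0.118 over single libraries left out. AURKA became -0.0139 in experiment 1 alone and -0.00182 to 0.0983 without single libraries, and PLK1 -0.0911 in KO1 alone, -0.0869 in experiment 1 alone and -0.0812 to 0.119 without single libraries. Without glucose, AURKA became 0.0529 in experiment 1 alone, and PLK1 -0.0320 in KO2 alone and -0.0154 to 0.133 without single libraries. The length offset turned the difference of AURKB to 0.0055 and the glucose effect on TOP2A in KMT2D-WT cells to 0.0215. The other turns of these genes came with single libraries left out, over ranges of -0.207 to 0.0751 for AURKB and -0.0110 to 0.193 for PLK1 in the difference, -0.0179 to 0.123 for AURKB, -0.118 to 0.0637 for CCNB1 and -0.140 to 0.0629 for TOP2A after glucose deprivation in KMT2D-WT cells, -0.197 to 0.0671 for AURKB in KMT2D-KO cells, and -0.361 to 0.000672 for FOXM1 between the lines. Depth limits little here except for NUSAP1 and PRC1.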
